A study of Drosophila melanogaster with 2 samples.

Results

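The genes described here are 10 Drosophila melanogaster genes of muscle and heart development, taken by symbol: tin, bap, bin, Mef2, nau, how, kirre, sls, Mhc and bt. They are 10 of the 13968 protein-coding genes annotated on the 7 chromosome arms and chromosomes examined. Every peak of the protein CG1024 that touched a gene body or the 10 kb on either side of it, called the window of the gene here, was taken as belonging to that gene. The genes were chosen with earlier results of these peak lists known, so their values are a description and no test was made on them.

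The data are chromatin immunoprecipitation followed by sequencing (ChIP-seq), which maps where a protein sits on DNA. The study has 1 group, with 2 biological replicates: embryos collected from 0 to 24 h of age, of the transgenic strain CG1024-GFP, which carries an insertion encoding CG1024 fused to eGFP. The protein was pulled down through its GFP tag from chromatin sonicated to 200 to 800 bp. Whole embryos were used, so a peak cannot be assigned to muscle, heart or any other tissue, and RNA was not measured. The group has no second condition to be compared with, and the labels do not say whether the untagged protein was still present.

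Conservative, thresholded and ranked peak lists are used, all on the dm6 build. The conservative list holds 3401 peaks drawn from both replicates, with a median signal of 90.9 and quartiles of 66.9 and 142. Replicate 1 alone gave 2599 thresholded peaks and replicate 2 gave 2291, and their longer ranked lists hold 82795 and 108744 peaks. The irreproducible discovery rate (IDR) measures how poorly a peak's rank repeats between 2 sets of reads. The ranked lists have no header, and the IDR values printed here come from a column read as −log10 of the global IDR because every thresholded peak lies at an IDR of 0.01 or less in it, so they depend on that reading. The signal of a peak was assigned by the authors on a scale that no source used here describes, and it is read within a list only. Depth is unknown because read counts are not part of these lists, and no counting interval can be given.

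Muscle in the fly embryo arises from the mesoderm. Tinman, encoded by tin, is a homeodomain protein of the NK class needed for the heart and the dorsal mesoderm, and bagpipe (bap) and biniou (bin) act downstream of it in the visceral mesoderm that surrounds the gut. Mef2 is the MADS-box factor required for differentiation in all muscle types. Founder cells then fuse with fusion-competent myoblasts through immunoglobulin-domain receptors such as kirre, and the resulting fibres build sarcomeres from myosin, actin and giant elastic proteins.

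Sequences of 4 peaks are shown to let the results be read against the DNA: the single peaks upstream of tin, sls and bin, each the only conservative peak of its gene, and the strongest peak inside kirre. They were read from the RefSeq copy of the dm6 assembly on the plus strand, 5′ to 3′. Capitals mark matches, on either strand, to any word of the motif search described further on, other than the general E-box. The tin stretch is the whole peak, chr3R:21378707-21378825. The sls stretch is chr3L:2115767-2115967, which is 100 bp on each side of the summit, and the bin stretch is chr3L:6989368-6989568, cut the same way. The kirre stretch is the whole peak, chrX:3097141-3097293.
tin: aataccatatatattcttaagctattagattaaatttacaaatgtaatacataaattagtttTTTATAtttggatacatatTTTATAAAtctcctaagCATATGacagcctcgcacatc
sls: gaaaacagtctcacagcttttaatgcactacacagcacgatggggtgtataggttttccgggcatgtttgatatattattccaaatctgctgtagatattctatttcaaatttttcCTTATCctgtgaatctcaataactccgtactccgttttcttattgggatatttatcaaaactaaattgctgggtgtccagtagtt
bin: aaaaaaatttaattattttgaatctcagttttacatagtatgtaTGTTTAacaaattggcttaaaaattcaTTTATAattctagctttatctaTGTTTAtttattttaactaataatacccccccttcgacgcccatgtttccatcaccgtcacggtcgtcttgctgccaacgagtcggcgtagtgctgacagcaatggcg
kirre: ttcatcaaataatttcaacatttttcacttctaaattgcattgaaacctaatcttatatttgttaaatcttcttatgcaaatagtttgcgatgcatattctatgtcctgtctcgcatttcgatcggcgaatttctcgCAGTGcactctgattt
The tin peak holds 4 matches, of which 1 is the E-box CATATG and the others are TATAAA, the TATA box word. The sls stretch holds 1 match, to the GATA word GATAAG. The bin stretch holds 3, of which TAAACA, the core word of forkhead factors, is found at 2 places. The kirre peak holds 1, to CACTG, which lies outside the 50 bp nearest to the summit.

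In the conservative list, 7 of the 10 genes had at least 1 peak in the window: tin, Mef2, sls, bin, nau, how and kirre. The same held for 52.7% of all protein-coding genes. In replicate 1 the same 7 genes had a thresholded peak, against 44.4% of all genes. In replicate 2 there were 8, against 41.3%, and the added gene was bap. Its only peak there is the replicate 2 peak at the tin promoter, which reaches into the 10 kb before bap, because the windows of tin and bap share 13.1 kb. The windows are of unequal length, from 21.6 kb for bap to 414 kb for kirre. Among all genes the share with a peak went from 49% in windows of 20 to 25 kb to 75% in the 12 windows of 200 to 1000 kb.

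A summit within 500 bp of a transcription start site (TSS) was present in the conservative list for 3 of the 10 genes, tin, Mef2 and sls, and for 14.1% of all genes. Replicate 1 had such a summit at 2 of them, tin and sls, against 11.4% of all genes. Replicate 2 had it at the same 2, against 10.5%. With 10 genes, a difference of 1 gene is 10 percentage points, so none of these shares is read as particular to the genes.

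**Figure D1:**
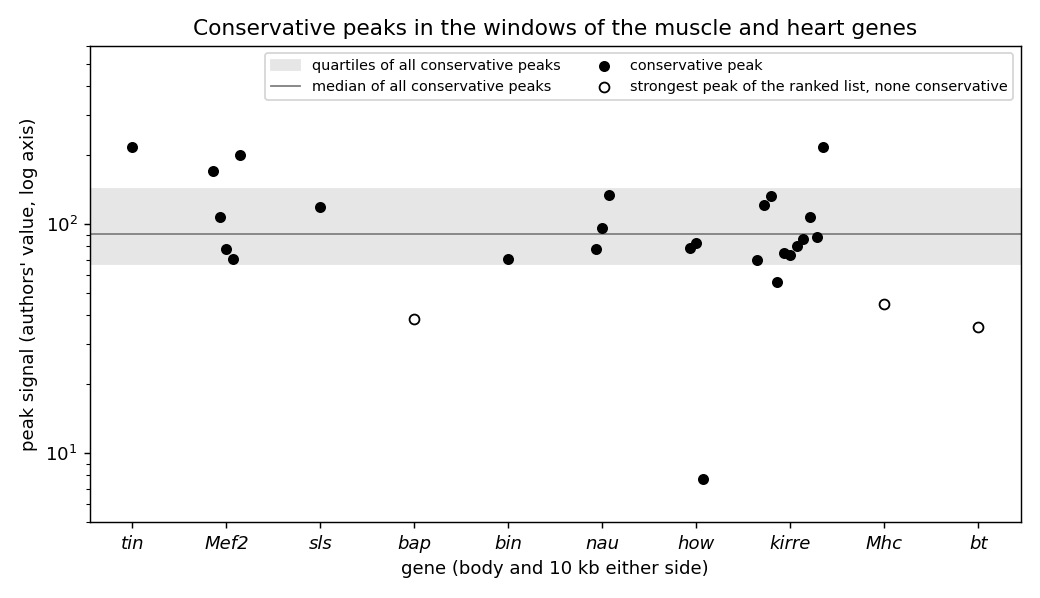
Signal of each conservative peak (filled points, authors' value, log axis) in the window of each gene, in order along the chromosome from left to right, with the median (line, 90.9) and quartiles (band, 66.9 to 142) of the whole list. The 3 genes without a conservative peak have an open point at the strongest peak of the ranked list, which lies below 50 in each.

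The windows held 25 conservative peaks: 11 in kirre, 5 in Mef2, 3 each in nau and how, and 1 each in tin, sls and bin. Their signals ran from 7.71 to 218 with a median of 86.4, and 11 of the 25 (44%) were above the list's median. Intronic summits made up 13 of the 25 (52%), against 32% of all conservative peaks, and 9 of those 13 were in kirre. Promoter summits, within 500 bp of a TSS of any gene, made up 9 (36%), against 48.8%. For 16 of the 25 (64%) the nearest protein-coding TSS belonged to the gene whose window it was.

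A signal of 200 or more was reached by 3 peaks, those at the tin promoter, in the far part of kirre and just beyond the start of Mef2. In the order of the genes by the strongest conservative peak in the window, tin was followed by kirre, Mef2, nau, sls, how and bin. For Mef2 and nau that peak lies at promoters of neighbours, as given below. The strongest peaks of tin and kirre, at 218 and 217, cannot be ordered: tin was first in replicate 1, kirre was first in replicate 2, and tin, kirre and Mef2 held the first 3 places in both. The rest of the order was no firmer. In replicate 1, Mef2 at 118 came before kirre at 112. In replicate 2, sls at 65.8 came before nau at 47.3, and bin at 42.8 before how at 41.4.

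The cardiac regulator tin (FBgn0004110, chr3R:21378977-21381970, plus strand) had a single conservative peak, centred 184 bp upstream of its only TSS. Its signal of 218 put it at rank 437 of the list. Replicate 1 had it at 121, with the summit 199 bp upstream, and replicate 2 at 96.7, with the summit 179 bp upstream. Both replicates therefore placed a thresholded peak at the same promoter, and no other peak of the window was in any thresholded list. Most peaks are 280 bp wide, and the tin peak is one of the 16% that are narrower, at 119 bp. It is also rich in A and T: 23.5% of its bases are G or C, and 0.913% of all conservative peaks are at or below that value, around a median of 37.5%. Repeat masking in the genome sequence covers 76.5% of the peak, though no annotated transposable element overlaps it. Of all conservative peaks, 3.53% are masked over more than 50% of their length. Whether the masking bears on the signal was not tested.

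The visceral mesoderm genes had weaker peaks or none. The homeobox gene bap (FBgn0004862, chr3R:21388880-21390449), which starts 6.91 kb beyond the end of tin, had no conservative peak, and the nearest one was that of the tin promoter, 10.1 kb away. Apart from that peak, the highest ranked peak of replicate 1 in the bap window reached 28.8 and a global IDR of 0.0637. The pooled ranked list had 38.4 at most, at an IDR of 0.313. The window thus held ranked peaks but none that passed the threshold at bap itself.

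The forkhead gene bin (FBgn0045759, chr3L:6990622-6994447) had 1 conservative peak, whose summit lies 1154 bp before the TSS. Its signal, 70.4, is below the list's median. Replicate 2 had a thresholded peak over it, at 42.8. Replicate 1 had a ranked peak there at 30.1, with an IDR of 0.0261, and a thresholded peak of its own at 37.4 whose summit lies 1483 bp upstream and which does not overlap the conservative peak. Both replicates therefore had a thresholded peak in the stretch upstream of bin, at positions that did not overlap.

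The myogenic factor gene nau (FBgn0002922, chr3R:23712814-23718357, minus strand), the fly relative of MyoD, had 3 conservative peaks in its window and none in its body or promoter. All 3 lie at promoters of neighbours. The strongest, at 134, is 492 bp downstream of the TSS of CG10365, and the next, at 96.2, is 338 bp upstream of the same TSS. Replicate 1 had this pair at 81.4 and 54.8, and replicate 2 had it at 47.3 and 44.8. The third, at 78.2, is 415 bp upstream of CG10301 and was thresholded in replicate 2, at 44.9, while replicate 1 had it at 34.4 with an IDR of 0.0116. The density of 11.7 conservative peaks per 100 kb in the nau window is the highest of the 10 genes. It stands beside 4.04 over all gene windows of 25 to 40 kb and 2.47 over the genome. It rests on 3 peaks in 25.5 kb and comes wholly from these neighbours. Each replicate also had 1 thresholded peak in the window that the conservative list lacks, at 51.1 in replicate 1 and 37.6 in replicate 2. A second series-level list, of 3992 peaks, had 1 further peak, at 57.3, inside the nau body, though the nearest TSS is that of a neighbour.

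Mef2 (FBgn0011656, chr2R:9913496-9958858, minus strand) had 5 conservative peaks, the most of any of the genes but kirre. The strongest, at 201, is 1043 bp upstream of the first Mef2 TSS, but it lies at the promoters of Pal1 and Pdrg1 and is 169 bp upstream of Pdrg1. Replicate 1 had it at 118 and replicate 2 at 83.8. The second, at 171, lies in a 5′ untranslated region 1812 bp downstream of an internal Mef2 TSS, with 81.7 in replicate 1 and 94 in replicate 2. This peak and the one at 107 in an intron, with 74.6 in replicate 1 and 34.1 in replicate 2, are the Mef2 peaks inside the gene that both replicates placed in their thresholded lists.

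The other 2 Mef2 peaks were in neither replicate's thresholded list. The promoter peak, 1 bp upstream of the first TSS, had a conservative signal of 70.7, with 31.4 and an IDR of 0.012 in replicate 1 and 35.8 and an IDR of 0.438 in replicate 2. The intronic peak beside the one at 107 had 78.3, with 32.4 at an IDR of 0.106 and 39.2 at an IDR of 0.109. The call of Mef2 as a gene with a promoter summit therefore rests on the reads of both replicates together and was not made in either alone.

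**Figure D2:**
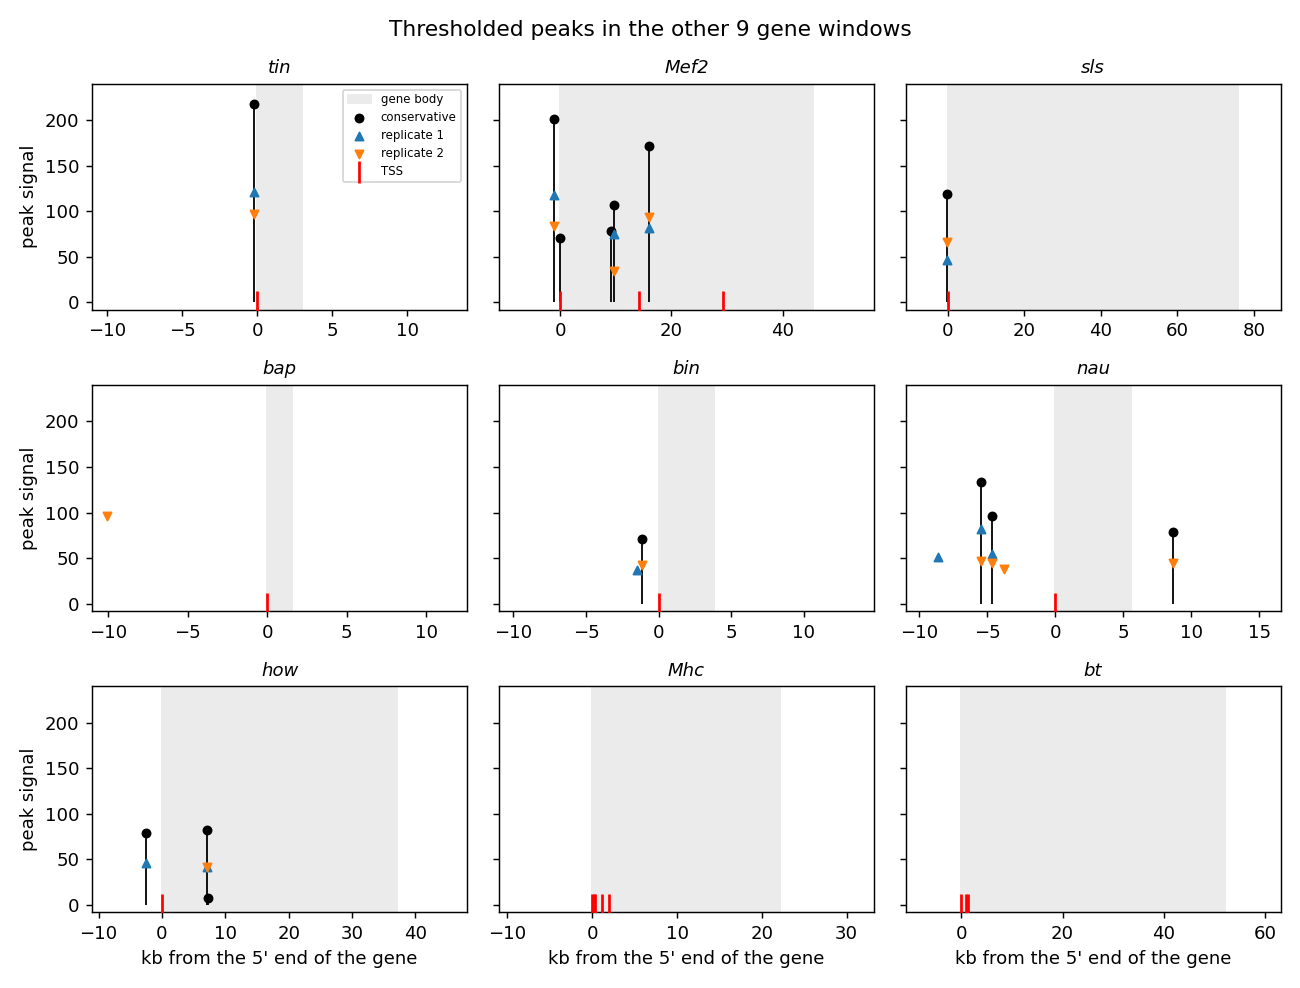
Thresholded peaks of the 9 genes other than kirre, by distance from the 5′ end of the gene (kb, along the direction of transcription), with the signal of the conservative list (black), replicate 1 (blue) and replicate 2 (orange) on each list's own scale, the gene body shaded and TSSs as red ticks. The tin, sls and bin peaks sit at or just before the start, and all nau peaks of these 3 lists lie outside the gene. The point at the left edge of bap is the tin promoter peak of replicate 2, and Mhc and bt have none.

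The RNA-binding gene how (FBgn0264491, chr3R:22042191-22079321), whose protein controls splicing and stability of transcripts in muscle and tendon cells, had 3 conservative peaks and no promoter summit. One lies 2524 bp upstream of the TSS, at 78.6, and was thresholded in replicate 1 at 46 but not in replicate 2, where it had 32.8 and an IDR of 0.0115. The intronic peak 7073 bp downstream, at 82.7, was thresholded in both replicates, at 41.4 in each. The third peak, at 7.71 and rank 3371, overlaps this one and the same peak of each replicate, so the pair is not independent. Of the 44 conservative peaks with a signal under 20, 43 overlap another conservative peak.

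The founder cell receptor gene kirre (FBgn0028369, chrX:2740384-3134532) is the longest of the 10 genes, at 394 kb with 6 TSSs, and 26 other protein-coding genes touch its window. It held 11 conservative peaks, the most of the 12 genes with windows of 200 to 1000 kb, whose median was 3.5. Per length this is 2.66 peaks per 100 kb, beside 2.47 over the genome and 0.987 over those 12 genes. None of the 11 summits is within 500 bp of a kirre TSS. All 11 lie in the gene body, 9 of them intronic and the other 2 at the promoter of Syx4, a syntaxin gene nested near the start of kirre, at 69.7 and 121. Among the 9, the peak at 133 also lies in CG32795, whose TSS is the nearest, at 2559 bp. Those at 80.3 and 86.4 are nearest to the TSS of CG4116, which is 952 bp from the peak at 86.4. For 6 of the 11 the nearest protein-coding TSS is one of kirre.

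The kirre peaks are described here as split at the longest stretch between neighbouring conservative peaks. The first 3 lie within 46.5 kb of the start, and then a stretch of 221 kb has no conservative peak. The remaining 8 lie in 89.5 kb from first to last, or 8.94 peaks per 100 kb, over a span set by these same peaks. Replicate 1 had no thresholded peak in the empty stretch and replicate 2 had 2 that overlap no conservative peak, at 39.3 and 38. The ranked lists had 120 and 183 peaks there, so the stretch was not without ranked peaks in either replicate. The second series-level list, of 3992 peaks, had 3 peaks there too. One of these, at 55.4, lies 49 bp downstream of the TSS of rst, which encodes the related fusion receptor and lies inside the kirre window; rst had no conservative peak.

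**Figure D3:**
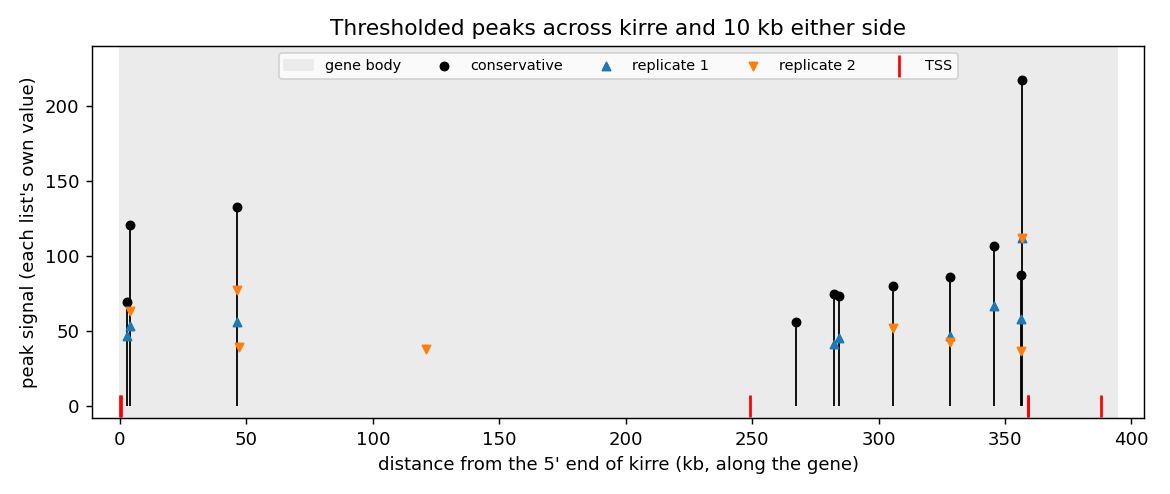
Thresholded peaks across kirre and 10 kb on either side, by distance from the 5′ end of the gene (kb), with the signal of the conservative list (black), replicate 1 (blue) and replicate 2 (orange) on each list's own scale and TSSs as red ticks. There are 3 conservative peaks in the first 46.5 kb, none over the next 221 kb, and 8 beyond it, with the strongest, at 217, just before a pair of internal TSSs.

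The strongest kirre peak, whose sequence is given above, is 2345 bp upstream of an internal TSS and reached 217, with 112 in each replicate. It is 153 bp wide and is the second of the 25 peaks to be narrower than 280 bp, after that of tin. Peaks narrower than 280 bp had a median signal of 279 over the list and the others 81.1. Of the peaks with a signal of 200 or more, 86.5% were narrower than 280 bp. These values compare peaks with the common width only and do not mean that signal rises as width falls. The strongest peak of the whole list is wider than 280 bp. A weaker peak next to the strongest kirre peak, 3005 bp upstream of the same TSS, had 87.6, with 57.8 in replicate 1 and 36.8 in replicate 2. Of the 11 kirre peaks, 5 were thresholded in both replicates, 4 in replicate 1 alone, 1 in replicate 2 alone and 1, at 56.1, in neither.

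**Figure D4:**
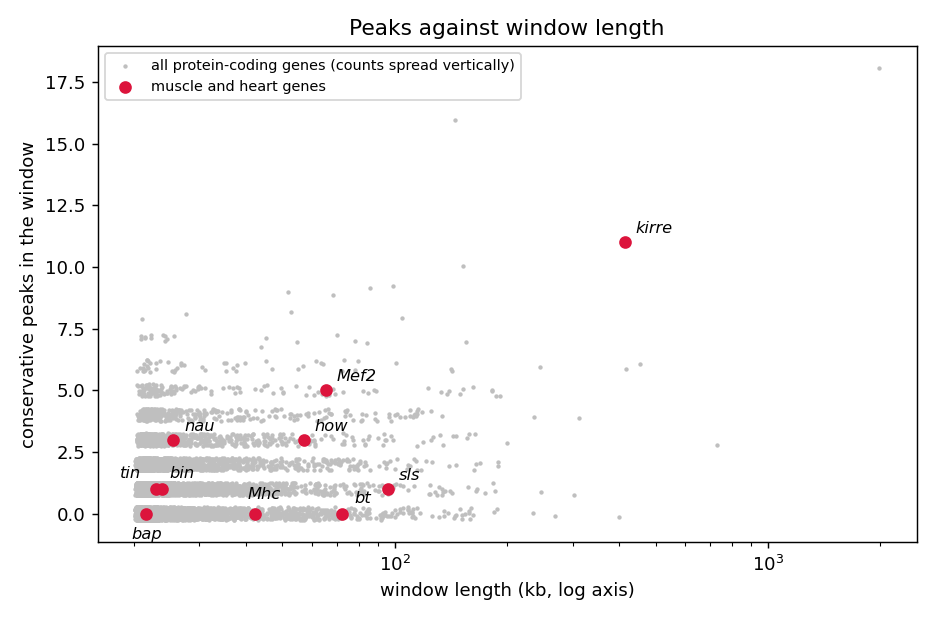
Conservative peaks in the window of each protein-coding gene (grey, counts spread vertically for display) against window length (kb, log axis), with the 10 muscle and heart genes in red. The kirre point, at 11 peaks in 414 kb, lies above the other genes of its length, and bap, Mhc and bt lie at 0.

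Of the sarcomere genes, sls had a promoter peak and the other 2 had no thresholded peak. The gene sls (FBgn0086906, chr3L:2039681-2115611, minus strand) encodes the titin-like proteins of the Z-disc and I-band. Its conservative peak, 256 bp upstream of the TSS, had a signal of 119, with 46.9 in replicate 1 and 65.8 in replicate 2. It was the only conservative peak in 95.9 kb, so sls has a density of 1.04 per 100 kb, the lowest of the 7 genes with a peak.

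The muscle myosin heavy chain gene Mhc (FBgn0264695, chr2L:16766566-16788766) had no peak in any thresholded list, and the nearest conservative peak, in the region of mdy, is 29.4 kb away. The strongest ranked peak in its window had 25.5 in replicate 1, at the promoter of Cyt-b5-r with an IDR of 0.301. In replicate 2 it was 22.7, 200 bp upstream of an Mhc TSS with an IDR of 0.212. The strongest ranked peaks of the replicates were thus at different genes, and neither passed.

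The projectin gene bt (FBgn0005666, chr4:724400-776474), which encodes a giant kinase linked to the thick filament, likewise had none. It is on chromosome 4, where 61 of 80 genes (76.2%) had a conservative peak in the window, and it is the longest of the 19 that did not. The nearest conservative peak, 48 bp upstream of the TSS of MED26, a subunit gene of the Mediator complex, had a signal of 364 and lies 11.1 kb from bt. The strongest ranked peak in the bt window had 23.9 in replicate 1 at an IDR of 0.131 and 25.1 in replicate 2 at an IDR of 0.212. Ranked peaks of both replicates together were at 48.6 per 100 kb in the bt window, beside 24.1 over chromosome 4 and 95.8 over the genome. By replicate the direction against the chromosome differed: replicate 1 had 31.9 in the bt window beside 45.5 over chromosome 4, and replicate 2 had 37.5 beside 17.4.

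Both replicates had a thresholded peak over 14 of the 25 (56%), beside 48.6% of all conservative peaks. Another 5 had a thresholded peak in replicate 1 alone and 3 in replicate 2 alone. All of the 25 had a ranked peak in both replicates. The 3 thresholded in neither (12%, beside 24% of all) were the Mef2 promoter peak, a Mef2 intronic peak and the kirre peak at 56.1. By gene, all peaks of tin and sls were in both lists, as were 3 of 5 in Mef2, 2 of 3 in nau, 5 of 11 in kirre and, resting on 1 pair of replicate peaks, 2 of 3 in how.

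**Figure D5:**
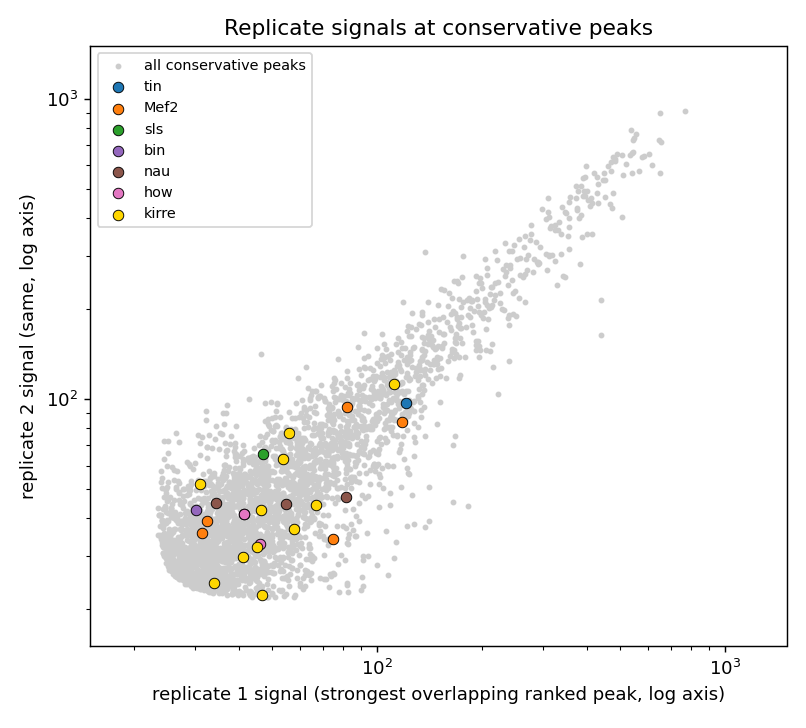
Signal of the strongest overlapping ranked peak in replicate 1 (x) and replicate 2 (y), both on log axes and each on its own list's scale, for the 25 conservative peaks of the genes (coloured) and for all conservative peaks (grey). The tin peak is at 121 and 96.7 and the strongest kirre peak at 112 in each. The Mef2 peak at Pal1 and Pdrg1 is at 118 and 83.8. These 3 are the peaks of the genes with a conservative signal of 200 or more. Of all conservative peaks, 12.9% have a conservative signal at or above that of the strongest of the 25.

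Words bound by muscle regulators, and others seen in promoters, were searched on both strands within 100 bp of each summit. The Tinman word CACTTGA was in none of the 25 peaks and in 3.27% of all conservative peaks, and the DNA replication-related element TATCGATA was in none and in 4.27%. The general E-box CANNTG, the site class of Nautilus and Twist, was in 17 (68%) beside 61.3%. Among its forms, which it contains, CATATG was in 3 (12%, beside 7.01%), CACATG in 3 (12%, beside 8.21%) and CAGCTG in 1 (4%, beside 9.1%). The word CACTG, chosen because an earlier search of these peaks gave it, was in 13 (52%) beside 51.8%.

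For the factors that act with Tinman, the GATA word GATAAG, the site class of Pannier, was in 4 peaks (16%, beside 10.3%) and the T-box word GGTGTGA in 2 (8%, beside 2.15%). The forkhead word TAAACA was in 4 (16%, beside 24.2%), among them the peak upstream of bin, itself a forkhead gene. TATAAA was in 6 (24%, beside 33%) and GAGAGAG in 1 (4%, beside 3.39%). With 25 peaks a single peak is 4%, and none of these shares is called particular to the genes. A match is a word in the sequence and was not measured as a bound site.

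A further 69 genes of the same biology, all of them matched in the annotation, were examined in the same way. A conservative peak in the window was found for 42 (60.9%) and a promoter summit for 7 (10.1%), beside the 52.7% and 14.1% of all genes. By role, a promoter summit was found at 1 of 9 mesoderm genes, 0 of 9 cardiac regulators, 1 of 4 visceral muscle genes, 0 of 12 somatic identity genes, 2 of 10 fusion genes, 1 of 20 sarcomere genes and 2 of 5 attachment genes. The strongest was at org-1, a T-box gene of visceral and somatic muscle, at 340 in the conservative list, with 196 in the first replicate and 150 in the second. WASp, an actin nucleation factor used in myoblast fusion, had 153, and its partner Vrp1 had 97.5. Actn, the Z-disc crosslinker alpha-actinin, had 99.8, and stumps, an adaptor of the fibroblast growth factor pathway in migrating mesoderm, had 97.1. The integrin genes mew and mys, which anchor muscle to tendon, had 65.9 and 63.2. The summits of org-1, WASp and Actn were thresholded in both replicates, those of stumps and Vrp1 in replicate 2 alone, and those of mew and mys in neither. Of these 7 promoter summits, only that of org-1 was stronger than the tin promoter peak at 218. By the strongest peak anywhere in the window, Actn reached 422, and genes without a promoter summit reached up to 519.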

How the data were processed

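Peak lists from 2 biological replicates of 1 group were used. Neither aligner nor peak caller is named in what was read here (not given in the sources used here). Per the labels, coordinates are on dm6. The authors' deposited lists give each peak a signal, a score of up to 1000 and, in the ranked lists, a column without a header that was read as −log10 of the global IDR from its values. Per the deposited inventories a control entered every list, and both replicates entered those of the whole series. Signal was used to describe and rank peaks within a list, and the score was not used further. Depth is unknown, so no interval was computed.

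Gene bodies, TSSs and exons came from Ensembl release 115 on the same assembly, and sequence from RefSeq. Peaks overlapping a gene body or 10 kb either side by at least 1 bp were counted with Python 3.11.15, numpy 2.4.6 and pandas 2.3.3; figures used matplotlib 3.10.9. Promoter summits lie within 500 bp of a TSS. Counting was tested on simulated peaks. The 10 genes, the 69 further genes, the 12 motifs and the classes of window length were chosen with earlier results of these data known. All 10 genes are named. Of the 69, those with a promoter summit are named, and neighbours are where their TSS is nearer to a conservative peak. No test was made.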

Additional observations from a re-analysis of the deposited data

How the results depend on the processing

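With gene bodies alone, 3 of the 10 genes had a conservative peak (Mef2, how and kirre) in place of 7; with 5 kb, 20 kb or the second series-level list it was 7, 9 and 7. With each replicate's own thresholded list, that is leaving out the other replicate, it was 7 to 8 genes, 19 to 20 peaks and 2 genes with a promoter summit, in place of 7, 25 and 3. Above the median signal, 11 of the 25 peaks were left. As alternatives added after the data were seen, 16 peaks had the gene's own TSS as the nearest, in 6 of the 10 genes (all but nau of the 7), and merging overlapping peaks left 24. The count of 14 peaks thresholded in both replicates was 12 to 18 under its alternatives. Within 50 bp of the summit in place of 100, CACTG was in 3 peaks (12%, beside 25.1% of all). CACATG was in 1 (4%, beside 3.92%), CAGCTG in 0 (beside 4.03%) and CANNTG in 10 (40%, beside 36.2%). GATAAG was in 2 (8%, beside 5.3%), GGTGTGA in 1 (4%, beside 1.06%) and GAGAGAG in 0 (beside 0.765%). A shorter stretch was searched, and the shares over all peaks fell too. For CACTG the fall was from 52% to 12% in the 25 peaks and from 51.8% to 25.1% over all, a difference that was not tested. The other 29 alternative values of these counts stayed within 1.5 times the main count or, at 0, did not change. Ordering the genes by 1 replicate's signal moved 8 of the 14 positions compared. No paired analysis was possible because there is 1 group. The lists hold no read depth, so no counting error could be given for any peak.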
